A study of Mus musculus with 8 samples.

Results

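The 5 major urinary protein (Mup) genes Mup4, Mup5, Mup6, Mup20 and Mup21 were taken by name, as listed Mup genes of chromosome 4, after the gene identifiers of the count tables had been matched to GENCODE M21 symbols. They are 5 of the 48831 genes counted and 5 of the 49 Mup genes and pseudogenes in the tables. Of the 5, 2 (Mup4 and Mup5) passed the filter on low counts and 3 did not.

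Major urinary proteins are small secreted lipocalins, barrel-shaped proteins that hold volatile pheromones in a central pocket. Liver makes most of them under hormonal control and they leave the body in urine, where they also act as scent signals that vomeronasal neurons read. Some members of the family are made instead in lacrimal, salivary and nasal glands, and Mup20 encodes darcin, a male scent protein of urine.

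The RNA came from whole vomeronasal epithelium of C57BL/6J mice, all 8 weeks old, in 8 libraries, 2 for each of 4 combinations of sex and preparation. Male pools 1 and 2 and female pools 1 and 2 each held tissue of 2 mice that the descriptions call non-flushed. Flushed females 2 and 3 and flushed males 1 and 3 were single mice whose tissue the descriptions call flushed, that is, rinsed to remove blood. No genotype, treatment or further allele is given for any group, and preparation, the number of mice per library and the dated folder named in the file headers go together and cannot be told apart. A protocol text shared by all 8 libraries describes a heparin flush, which differs from the description of the pools, and the descriptions were followed. Nothing states more about how the pools or single mice were chosen, so p-values measure only the spread between these libraries.

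Library totals ran from 18763557 to 24965088 counts. All libraries matched their labelled sex, with 2905 to 6712 counts summed over 4 Y-linked genes in males and 2 to 10 in females. Vomeronasal neurons were present, with Omp, their olfactory marker protein gene, between 340.9 and 484.4 CPM, the counts scaled by library size, although Trpc2, their channel gene, was counted at 0 in every library. Gland cells were present too, with the water channel gene Aqp5 between 75.44 and 146.2 CPM. Of the other gland markers, Bpifb2 did not exceed 0.05111 CPM in any library, while Bhlha15, Dmbt1, Lcn4 and Obp2a were far above that in all. Which cells held the Mup RNA was not measured. Red blood cell genes summed to between 1646 and 2053 CPM in the pools, to 599 and 620.5 in the flushed males and to 105.4 and 114.3 in the flushed females. In whole tissue, fewer cells of a type and less RNA per cell cannot be told apart.

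The sequences show how close these genes are, since close copies can share reads. On GRCm38, Mup4 lies on chromosome 4 at 59956804 to 59960710 on the minus strand, and Mup6 follows at 59964294 to 60007274 on the plus strand. Mup5 lies at 61831319 to 61835233, Mup20 at 62050234 to 62054158 and Mup21 at 62147932 to 62150863, all on the minus strand. The 90 coding bases below, from GENCODE M21 transcripts, are the stretch without gaps in which Mup5 differs most from Mup4, and capitals mark bases unlike Mup4.
Mup4: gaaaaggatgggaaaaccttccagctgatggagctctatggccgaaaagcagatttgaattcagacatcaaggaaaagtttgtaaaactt
Mup5: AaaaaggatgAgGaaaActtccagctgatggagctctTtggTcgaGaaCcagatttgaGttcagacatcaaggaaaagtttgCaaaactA
Mup6: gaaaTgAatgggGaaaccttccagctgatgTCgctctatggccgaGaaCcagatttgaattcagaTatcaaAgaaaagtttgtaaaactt
Mup20: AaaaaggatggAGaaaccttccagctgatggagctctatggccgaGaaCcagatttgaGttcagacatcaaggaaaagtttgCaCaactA
Mup21: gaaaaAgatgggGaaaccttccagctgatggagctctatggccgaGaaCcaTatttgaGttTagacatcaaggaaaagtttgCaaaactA

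Mup5 had 11 bases unlike Mup4 in this stretch, and Mup6, Mup20 and Mup21 had 9 each. Over the whole coding sequence Mup4 and Mup5 were each other's nearest relative, with 494 of 534 aligned bases the same (92.51%). Mup6 was nearly as close to Mup4, with 493 of 534 the same (92.32%). In protein Mup6 was the closer to Mup4, at 84.83% identity against 83.71% for Mup5. Mup20 was 91.67% identical to Mup5 in coding bases, and Mup21 was 96.32% identical to Mup3.

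Reads of 100 bases told most of these genes apart when whole. Every one of the 823 windows of 100 bases in the Mup4 transcript was absent from the transcripts of all other genes, and so were all 900 of Mup6. Mup5 shared 11 of 826 windows (1.33%) with 15 other Mup genes. Mup20 shared 322 of 829 (38.84%) with the pseudogene Mup-ps19, and Mup21 shared 26 of 578 (4.5%) with Mup3. Only exact matches to annotated transcripts were searched. The counting divided reads with several alignments, and Mup4 was a whole number (within 0.005) in 5 of 8 libraries and Mup5 in 7 of 8, although divided reads can also add up to a whole number.

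The counts lay in Mup4 and Mup5. Together these genes held 99.934% of all Mup counts over the 8 libraries, and at least 98.704% in any library. Of the other 44 Mup genes and pseudogenes, 35 were at 0 in every library, and none exceeded 3.5 counts in a library. Mup4 and Mup5 totalled 59510 and 14934 counts over the 8 libraries.

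Mup4 stood at 949.2 CPM in male pool 1, 78.05 in male pool 2, 53.26 in female pool 1 and 15.59 in female pool 2. It stood at 8.684 CPM in flushed female 2, 9.205 in flushed female 3, 35.08 in flushed male 1 and 1698 in flushed male 3. Male pool 1 and flushed male 3 stood far above the rest and held 92.95% of all Mup4 counts. Within each preparation both males lay above both females, but over all 8 libraries the sexes overlapped, because flushed male 1 lay below female pool 1. In flushed male 3 Mup4 was 0.1708% of the library and the 25th gene of 20601 by RPKM, which is CPM per kilobase of exon, at 1842 RPKM. In flushed female 2 it was at 9.419 RPKM, 4861st.

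Mup5 stood at 99.6 CPM in male pool 1, 22.68 in male pool 2, 10.63 in female pool 1 and 14.62 in female pool 2. It stood at 0.925 CPM in flushed female 2, 1.136 in flushed female 3, 7.889 in flushed male 1 and 536.2 in flushed male 3. The same males were highest, with 92.16% of all Mup5 counts, and both males again lay above both females within each preparation. Over all libraries the sexes overlapped here too, since flushed male 1 lay below both female pools. The highest library exceeded the lowest 195.5-fold for Mup4 and 579.6-fold for Mup5.

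**Figure D1:**
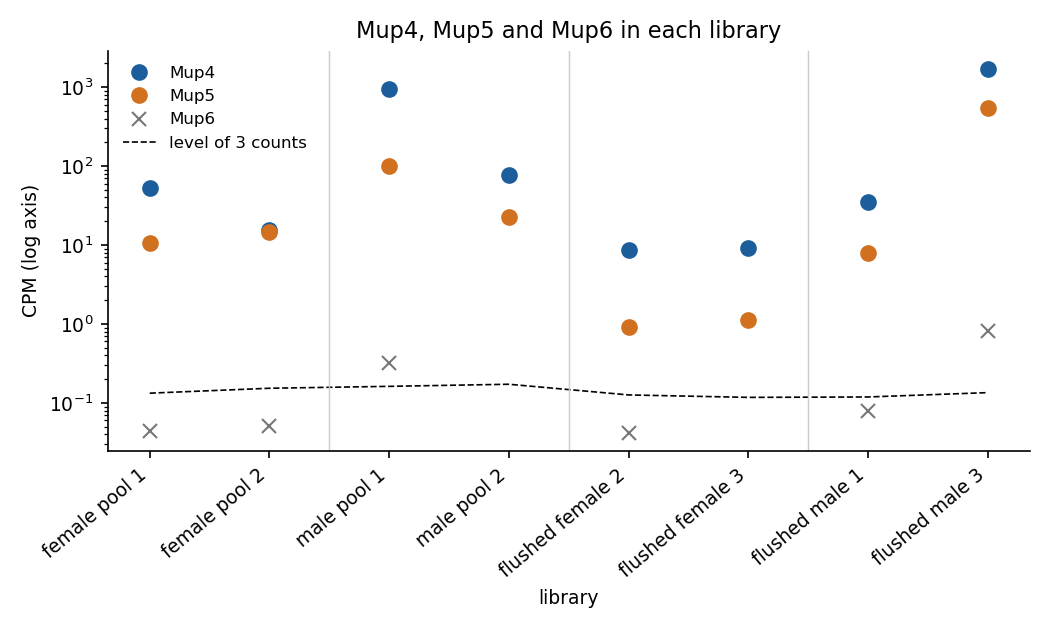
Level of Mup4, Mup5 and Mup6 in each library, in CPM on a log axis, with vertical lines between the 4 groups and a dashed line at the level of 3 counts. Male pool 1 and flushed male 3 stand above the other libraries for Mup4 and Mup5, and zeros of Mup6 are not drawn.

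The first comparison asked whether the members differ between males and females. Mup4 averaged 690.2 ± 793.2 CPM in males and 21.69 ± 21.28 in females (SD, n = 4 each), a fitted log2 difference of 5.20 (SE 1.25, 36.65-fold). Mup5 averaged 166.6 ± 249.7 CPM in males and 6.826 ± 6.888 in females, a log2 difference of 4.50 (SE 1.42, 22.64-fold). Neither difference passed the edgeR quasi-likelihood test over all genes, with adjusted p = 0.312 for Mup4 and 0.472 for Mup5 (unadjusted 0.00186 and 0.00967). That test called 0.116% of 20601 genes by sex, 0.0825% higher in males and 0.034% lower, and 0 of the 2 members tested. Before adjustment both members were under 0.05, as were 1640 of the 20601 genes. DESeq2 called both, with adjusted p = 0.00803 and 0.0476, where it called 0.602% of genes. The limma-voom fit called neither, and 23 of the 20601 genes. An exact two-sided permutation of sex within preparations gave p = 0.0556 for each gene, the smallest that its 36 assignments allow. Red blood cell RNA was also higher in flushed males than in flushed females. Of its 7 genes, 0 passed by sex with edgeR (7 under 0.05 before adjustment) or limma-voom and 2 with DESeq2. By interaction 5 of the 7 passed with edgeR as higher, among the 10 genes so called in all, and its part in the sex difference was not tested.

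The sex difference pointed the same way in both preparations. Between pools the log2 difference was 3.89 (SE 1.52) for Mup4 and 2.28 (SE 1.34) for Mup5, and between flushed single mice it was 6.60 (SE 1.75) and 8.03 (SE 1.84), with edgeR adjusted p between 0.355 and 0.964. The interaction of sex and preparation was 2.704 (SE 2.01) for Mup4 and 5.75 (SE 2.28) for Mup5, with edgeR adjusted p = 1 for each (unadjusted 0.21 and 0.0315). The test called 0.0485% of genes by interaction and 0 of the 2 members. Before adjustment 1 member was under 0.05, beside 670 of 20601 genes. DESeq2 and limma-voom called 0 members by interaction, too, and 28 and 7 of 20601 genes. Without flushed male 3 the interaction was -1.92 for Mup4 and 0.64 for Mup5 (edgeR adjusted p = 1 for each), so its size rests on that library. With male pool 1 and flushed male 3 both left out, an alternative chosen after seeing the data, the sex difference was 1.56 for Mup4 and 1.69 for Mup5 (edgeR adjusted p = 0.652 and 0.602), and without flushed male 3 alone it was 3.24 and 2.44 (0.448 and 0.244).

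The second comparison set flushed single mice against non-flushed pools. Mup4 averaged 437.8 ± 840.5 CPM in flushed libraries and 274.0 ± 450.8 in pools, and Mup5 averaged 136.5 ± 266.5 and 36.88 ± 42.11 (SD, n = 4 each). The fitted log2 differences were -0.50 (SE 1.12) and 0.30 (SE 1.40), with edgeR adjusted p = 0.74 and 0.879. A preparation difference was called by edgeR for 45.5% of genes, 22.6% higher in flushed libraries and 22.9% lower, and for 0 of the 2 members. DESeq2 and limma-voom called 8346 and 9326 of 20601 genes and 0 members. In each of these fits 0 members were under an unadjusted p of 0.05, beside 10933 of 20601 genes with edgeR. Flushed male 3 decides this result. Without it both genes were lower in flushed libraries, by -2.75 for Mup4 and -3.21 for Mup5 on the log2 scale (edgeR adjusted p = 0.0396 and 0.00197), where 19.6% of genes were called lower. Within females alone Mup5 was 0.925 and 1.136 CPM in flushed mice against 10.63 and 14.62 in pools. Its log2 difference was -3.60 (SE 1.93, edgeR adjusted p = 0.194). Mup4 was 8.684 and 9.205 CPM against 53.26 and 15.59, a log2 difference of -1.95 (SE 1.49, edgeR adjusted p = 0.357). Within females edgeR called 5533 of 20601 genes by preparation and 0 of the 2 members. Red blood cell RNA moved with preparation as well, with 7 of 7 genes lower in flushed libraries, and its part in these values was not tested.

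**Figure D2:**
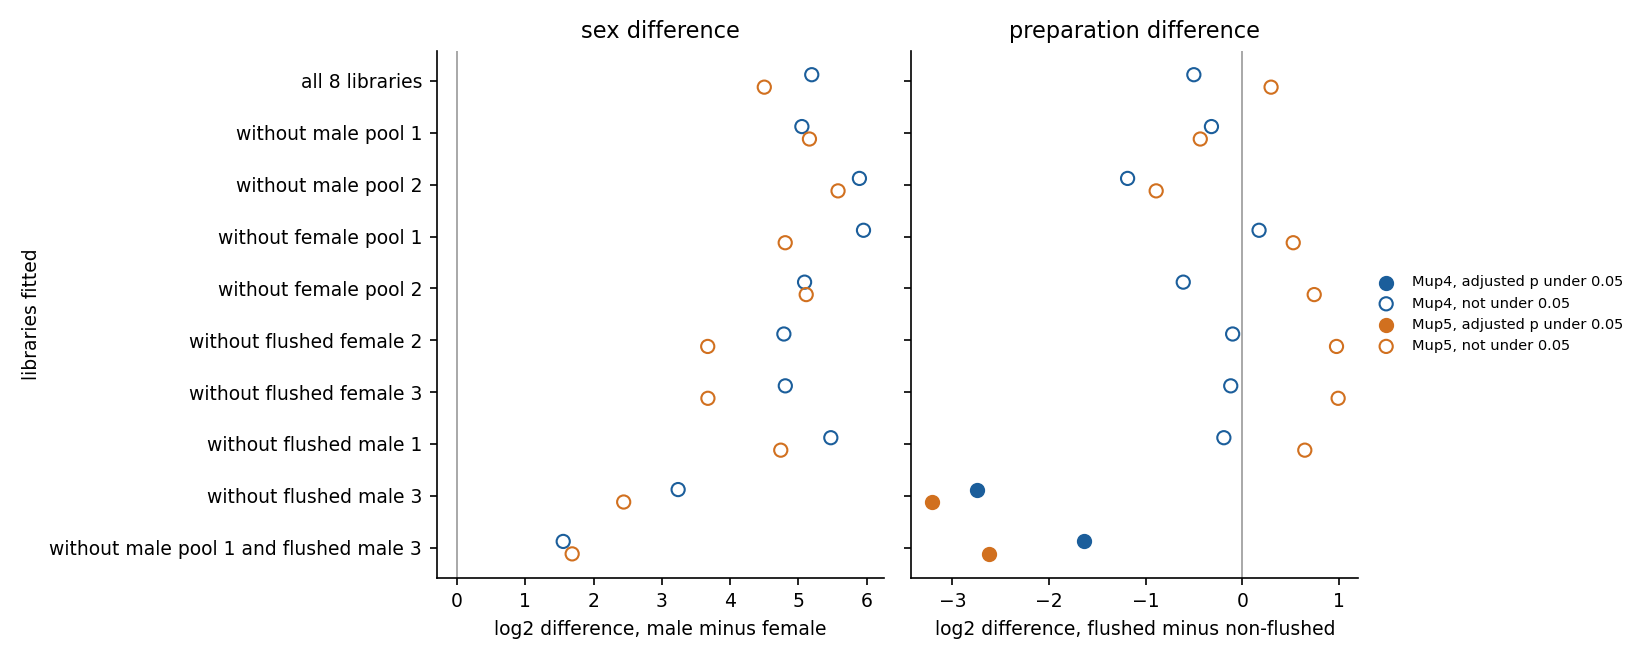
Fitted log2 difference of Mup4 and Mup5 by sex (left) and by preparation (right) with all 8 libraries, with each library left out and with the 2 highest left out. Filled points have an edgeR adjusted p under 0.05. Every sex difference shown is above 0 and none is filled, and the preparation difference is filled only where flushed male 3 is left out.

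With the 4 groups pooled, both genes were among the most variable between libraries of a group. After each group's mean was taken off, log2(CPM + 0.5) had an SD of 2.43 for Mup4, the 7th of 17611 genes with a mean of at least 1 CPM, and 2.26 for Mup5, the 12th. The median gene had 0.13. The spread was widest in the male groups. Both flushed males were 8-week-old single mice of one strain, yet Mup4 stood at 35.08 CPM in one and 1698 in the other. In females Mup5 stood at 10.63 and 14.62 CPM in pools and at 0.925 and 1.136 in flushed mice. Mup4 stood at 8.684 and 9.205 CPM in flushed females, but at 53.26 and 15.59 in female pools.

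Mup4 and Mup5 did not keep a fixed ratio. Mup4 exceeded Mup5 by 9.561 times in RPKM in male pool 1, with an exact 95% interval of 9.111 to 10.03 for counting error only. The ratio was 3.453 in male pool 2, 5.029 in female pool 1 and 1.07 in female pool 2, where the interval of 0.9075 to 1.262 includes equal levels. It was 9.417 in flushed female 2, 8.13 in flushed female 3, 4.462 in flushed male 1 and 3.178 in flushed male 3. The high ratios fell in male pool 1 and both flushed females, and the libraries with the highest levels of both genes, male pool 1 and flushed male 3, had different ratios. By sex the ratio overlapped, as males ran from 3.178 to 9.561 and females from 1.07 to 9.417, and by preparation too, from 1.07 to 9.561 in pools and from 3.178 to 9.417 in flushed mice. Among flushed mice both females lay above both males, with counting intervals that did not overlap, while in pools male pool 1 was highest and female pool 2 lowest.

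**Figure D3:**
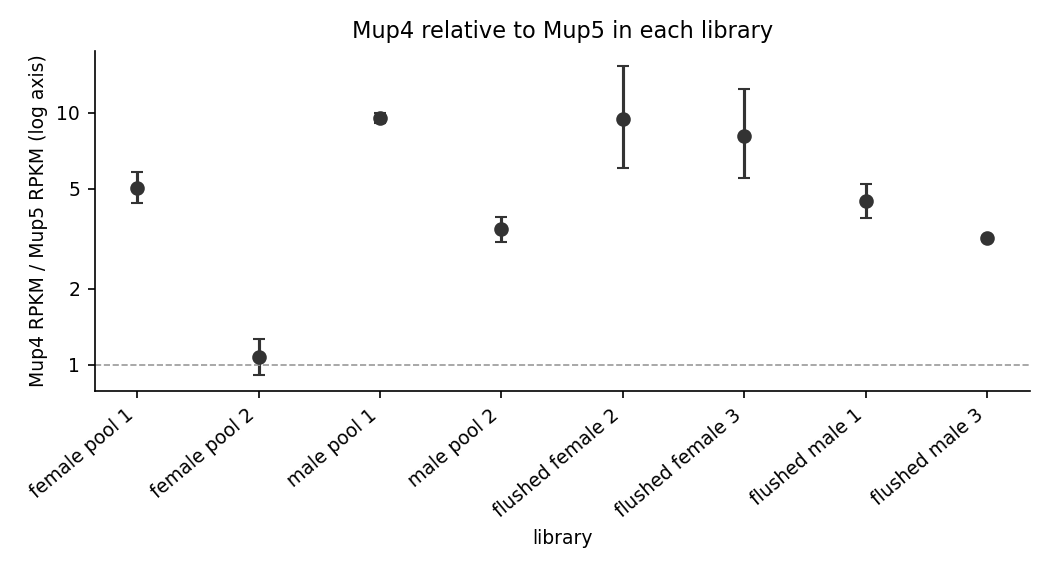
Ratio of Mup4 to Mup5 in RPKM in each library, on a log axis, with exact 95% intervals that cover counting error only. Female pool 2 lies at 1.07 and male pool 1 at 9.561.

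Mup6, the neighbour of Mup4, was near 0. It had 18.33 counts in flushed male 3 and 6 in male pool 1, and 2 or fewer in each of the other 6 libraries, with 0 in male pool 2 and flushed female 3. The only libraries above 3 counts were those highest in Mup4. Over the 8 libraries there were 4.929 Mup6 counts per 10000 Mup4 counts, and the mean Mup4 level in RPKM was 2262 times that of Mup6.

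The upstream sequences of this pair are shown because their levels differ so widely. They are the 207 bases before the start of 1 GENCODE M21 transcript of each gene, from RefSeq's GRCm38.p6 table, for Mup4 at chr4:59960711-59960917 on the minus strand and for Mup6 at chr4:60003231-60003437 on the plus strand, each 5′ to 3′ on its gene's strand. For Mup6 this window lies within the annotated gene, since another transcript starts further upstream. Capitals mark the 19 bases of Mup6 that do not match Mup4.
Mup4: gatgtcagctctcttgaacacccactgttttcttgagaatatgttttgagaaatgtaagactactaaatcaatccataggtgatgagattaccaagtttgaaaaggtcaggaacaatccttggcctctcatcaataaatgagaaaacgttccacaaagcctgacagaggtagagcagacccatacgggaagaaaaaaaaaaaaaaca
Mup6: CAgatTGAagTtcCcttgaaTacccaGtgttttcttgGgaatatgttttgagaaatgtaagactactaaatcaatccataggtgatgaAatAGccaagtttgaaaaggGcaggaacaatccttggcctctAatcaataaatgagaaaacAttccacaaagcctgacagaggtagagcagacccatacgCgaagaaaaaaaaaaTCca

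Of the 5 members, RefSeq's table held windows for Mup4, Mup6 and Mup21. In the 250 bases before its starts, which lie 43 bases after the starts of those transcripts of Mup4 and Mup6, Mup6 was 92.34% and Mup21 84.75% identical to Mup4. On either strand, TATAAA was found in 2 of 14 Mup windows, those of Mup4 and Mup6, at -27 in each, and in 12.37% of all 32851 windows. AGAACA, a steroid receptor half-site, was found in those of Mup21 and Mup3 and in 16.08% of all windows, and TTCNNNGAA, a STAT motif, in no Mup window and in 7.02% of all. These are matches of letters. The windows of Mup4 and Mup6 held the same searched motifs, while that of Mup21 held AGAACA and not TATAAA. At -27, the TATAAA of Mup4 and Mup6 lies within the final 43 bases of the window. Those bases follow the sequences printed above and lie inside the annotated genes. Each window ends at its gene's own RefSeq start, and the distance to a GENCODE start was computed only for Mup4 and Mup6. The Mup21 window, at chr4:62150842-62151091 on the minus strand, also reaches into its gene, which ends at 62150863. It reaches less far than the 43 bases of Mup4 and Mup6, so the windows are not placed alike. A motif absent from a window was not searched for beyond it. A link between these sites and RNA level was not tested.

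Mup20, the darcin gene, was not detected beyond a trace. It had 2.5 counts in flushed male 3, 0.33 in male pool 2 and 0 in the other 6 libraries, and neither value was a whole number. Mup21 was at 0 in all 8 libraries. A count of 0 allows up to 3 counts, which is 0.1175 to 0.1723 CPM per library, so levels under that were not detectable at this depth.

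Genes with the most similar pattern to Mup4 over the 8 libraries were chosen by Pearson r of log2(CPM + 0.5), with members and clone names left out. The points share library, depth and the 2 high males. Obp1b and Obp1a, odorant-binding protein genes of nasal glands on chromosome X, reached r = 0.98 each (rho 0.95 and 0.98). Lcn11, a lipocalin gene of chromosome 2, had r = 0.98 (rho 0.95), Syvn1, which encodes a ubiquitin ligase of the endoplasmic reticulum, had 0.98 (rho 0.90), and BC051076 had 0.96 (rho 0.95). Without flushed male 3 and male pool 1, the libraries farthest from the median, these r values were 0.89, 0.87, 0.83, 0.89 and 0.75. Mup5 itself correlated with Mup4 at r = 0.95 (rho 0.93, and 0.83 without those libraries). Gm14744, a gene of chromosome X left out for its clone name, had r = 0.97 with Mup4, above BC051076 (rho 0.95, and 0.82 without those libraries).

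Obp1a stood at 906.1 CPM in male pool 1 and 2166 in flushed male 3, against 24.88 to 104.9 in the other 6 libraries. Obp1b stood at 1137 and 1751 CPM in the same males and at 20.96 to 162.9 elsewhere. Both thus shared the pair of high libraries with Mup4, and their residual SDs ranked 4th and 5th of 17611 genes. Lcn11 stood at 880.3 and 1163 CPM in those males and at 75.66 to 207.2 in the others, and BC051076 at 257.8 and 484.5 against 10.01 to 51.45. Syvn1 was also highest in those males but kept a narrow range, from 19.9 to 28.56 CPM.

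Mup4 aside, and clone names left out, the 5 genes nearest Mup5 were Lcn11 (r = 0.96, rho 0.95), Syvn1 (0.95, 0.81), BC051076 (0.94, 0.93), Wnk2, which encodes a kinase (0.94, 0.83), and Dnase1, which encodes a secreted deoxyribonuclease (0.94, 0.90). Without flushed male 3 and flushed female 2, their r values were 0.95, 0.93, 0.87, 0.94 and 0.84. Dnase1 stood at 47.73 CPM in flushed male 3, at 12.16 in male pool 1 and between 1.253 and 7.694 in the others.

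**Figure D4:**
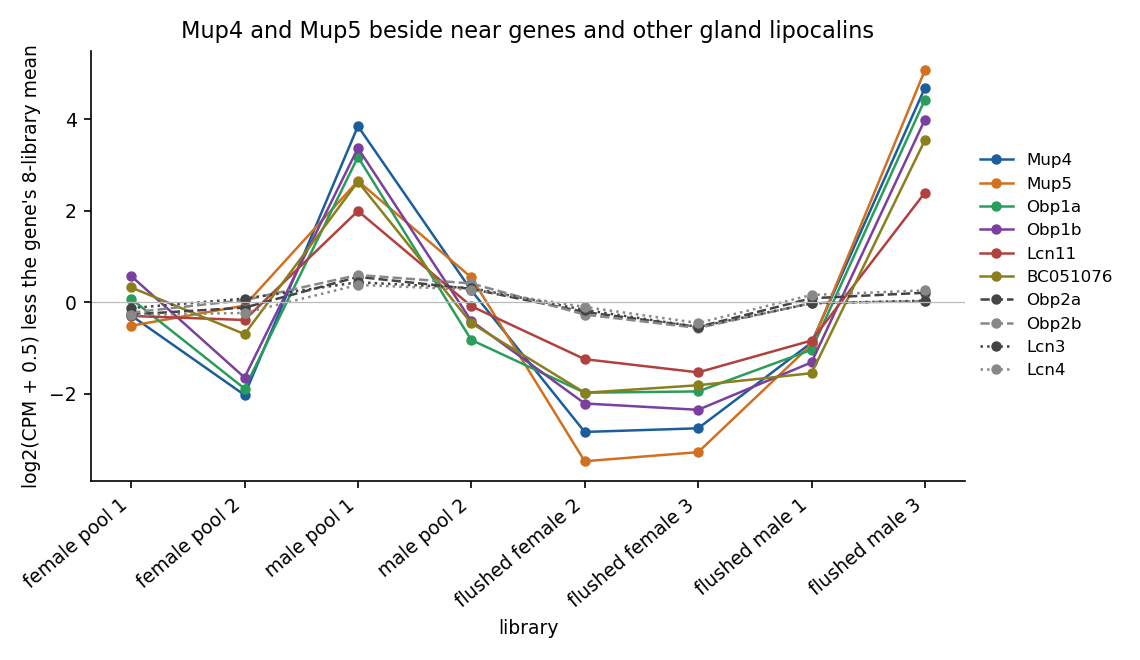
Level of each gene in log2(CPM + 0.5) less its mean over the 8 libraries, by library; lines only join the points of a gene. Mup4, Mup5, Obp1a, Obp1b, Lcn11 and BC051076 rise in male pool 1 and flushed male 3, while Obp2a, Obp2b, Lcn3 and Lcn4 stay within a narrow band.

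Obp2a, Obp2b, Lcn3 and Lcn4 were far more abundant than Mup4 and Mup5 and varied far less between libraries. Obp2a, an odorant-binding protein gene, had a mean of 63900 RPKM and a highest library 2.137 times its lowest, and its residual SD was 0.16. Its neighbour Obp2b averaged 60400 RPKM (highest over lowest 2.234), and Lcn3 and Lcn4, lipocalins of vomeronasal glands, 23770 and 10220 RPKM. Mup4 averaged 386.0 and Mup5 93.74 RPKM. Of 10 gland lipocalins tested, 2 (Obp2a and Lcn4) passed as higher in males with edgeR and 0 as lower, beside 0.0825% and 0.034% of all genes tested. DESeq2 called 4 and limma-voom 1, where they called 124 and 23 of 20601 genes. Before adjustment 7 of the 10 were under 0.05 with edgeR, beside 1640 of 20601 genes. By preparation 5 of the 10 were lower in flushed libraries and 0 higher, beside 22.9% and 22.6% of all genes tested. Each sex call held in 8 of 16 alternatives, with an edgeR adjusted p of 0.0953 for Obp2a and 0.0842 for Lcn4 without X- and Y-linked genes, and of 0.123 and 0.118 without female pool 1. Their median log2 sex difference was 0.55, beside -0.0029 over all genes tested. Their summed level was 116200 to 167600 CPM in males and 77670 to 110700 in females, without overlap. Obp2a and Obp2b made up most of this sum, at 68040 and 64900 CPM in male pool 1. Singly, Obp2a and Lcn4 did not overlap by sex, while Obp2b, Lcn2, Lcn3, Lcn10, Lcn11, Obp1a and Obp1b did.

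For the remaining secretory products of nasal glands, no sex difference passed the test. Of 26 tested, 0 passed by sex with edgeR (7 under 0.05 before adjustment) or limma-voom, and DESeq2 called 2. Over all 20601 genes, 1640 were under 0.05 before adjustment with edgeR, and DESeq2 called 124. By preparation 1 was higher and 9 were lower in flushed libraries, beside 22.6% and 22.9% of all genes tested. Aqp5, a water channel of gland cells, was among the lower (log2 difference -0.62, SE 0.08, edgeR adjusted p = 0.000172). These secretory products had a median log2 sex difference of 0.08. Summed, they ran from 57200 to 82900 CPM, highest in male pool 1 (82900), then male pool 2 (69400) and flushed male 3 (69220). Dmbt1, a secreted mucosal defence protein gene, led them at 6859 RPKM on average and stood at 63740 CPM in male pool 1 and 53160 in flushed male 3, within a 1.539-fold range over all libraries.

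Genes of hepatocytes, the main makers of urinary Mup proteins, were at or near 0. Alb, the albumin gene, did not exceed 0.05405 CPM in any library, Fga was at 0 in all 8 and Fgb at 0 in 7. The 16 hepatocyte genes summed to between 4.541 and 8.262 CPM, with 7.089 in male pool 1 and 6.189 in flushed male 3, led by Cyp2e1, an enzyme gene also used outside liver, at 1.924 to 5.895 CPM. Of the 5 tested, 0 passed by sex with edgeR, DESeq2 or limma-voom. With edgeR 0 were under an unadjusted p of 0.05, beside 1640 of all 20601 genes.

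Lacrimal and salivary gland genes were examined because these glands also make Mup proteins. Of 25 in the tables, 10 were at 0 in every library, among them Esp1 and Prol1, and 5 were tested. Of these 5, 0 passed by sex with edgeR, DESeq2 or limma-voom. With edgeR 2 were under 0.05 before adjustment, beside 1640 of all 20601 genes. Amy1, an amylase gene, was the 1 that was higher in flushed libraries, where 22.6% of all genes tested were. Summed, they were 261.2 CPM in flushed male 3 and 100.9 to 148.4 in the other 7 libraries, and Pip, a secreted protein gene, stood at 78.07 to 125.1 CPM over all 8. Scgb1b27, a secretoglobin gene, stood at 113.8 CPM in flushed male 3 and at 7.41 or less elsewhere. Scgb2b7, another secretoglobin gene, stood at 33.16 CPM in male pool 1 and 32.28 in flushed female 3. It was at 10.53 or less in the others, with 6.298 in flushed male 3. Car6, a secreted carbonic anhydrase gene of the nasal gland list, and Klk1, a tissue kallikrein gene, were picked after their values were seen. Car6 stood at 132.8 CPM in flushed male 3 against 7.666 or less elsewhere, and Klk1 at 11.79 against 1.811 or less. For Klk1 the 1.811 was male pool 1, the next highest library. Scgb1b27 and Car6 were thus high in flushed male 3 and not in male pool 1, although both libraries were high in Mup4 and Mup5. The part of such gland tissue in the level of Mup4 and Mup5 in flushed male 3 was not tested.

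Genes of the hormone pathways known to control Mup genes in liver were examined next. Of 16 tested, 0 passed by sex with edgeR, DESeq2 or limma-voom. With edgeR 1 was under 0.05 before adjustment, beside 1640 of all 20601 genes. By preparation 7 were higher and 4 lower in flushed libraries, beside 22.6% and 22.9% of all genes tested. Ghr, the growth hormone receptor gene, and Stat5b, a transcription factor gene that acts below it, ran from 42.89 to 67.73 and from 43.17 to 54.79 CPM. Male pool 1 and flushed male 3 were neither highest nor lowest for Ghr or Stat5b. Igf1r, the receptor gene for a growth factor that growth hormone induces, was highest in those libraries, at 277.5 and 311.7 CPM against 234.6 to 264.1 in the others (log2 sex difference 0.10, SE 0.09, edgeR adjusted p = 0.844).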

How the data were processed

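The authors deposited expected counts, since a read with several alignments was divided among genes, per the file headers. The submitters' processing notes name STAR 2.7.1a, featureCounts 1.6.5 and GRCm38. Counting was reverse stranded and with no minimum mapping quality, per the file headers. Counts that divide reads dilute differences between close paralogs. No normalization had been applied.

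Rounded counts entered edgeR 4.0.16 under R 4.3.3 (quasi-likelihood F test, TMM, filterByExpr on 4 groups, sex and preparation as additive terms). A gene was called at a p under 0.05 after Benjamini-Hochberg adjustment over all 20601 genes tested. Interaction and within-group contrasts used further fits. SE is the log2 difference divided by the square root of F. CPM divides unrounded counts by TMM-scaled totals, and RPKM also by exon length. The script was tested on simulated data. Alternatives were DESeq2 1.42.0, limma 3.58.1 (voom) and those of the closing section.

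The members and gene lists were chosen with earlier results of these data known. The text names the 5 members, the 5 genes other than members nearest Mup4 and Mup5 with a mean log2 CPM of at least 1 and no clone name, and, of each list, the 3 genes of smallest p past the threshold and the 3 of highest mean RPKM. Fewer of these were printed, and marker genes were added from the lists after their values were seen. Older symbols were matched through RefSeq. One gene of a list is not reported here.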

Additional observations from a re-analysis of the deposited data

Results flagged for a closer look

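Libraries were examined in sets of 4, by sex and by preparation, for a lone high or low value, on the CPM scale. Chance marks about 1 set in 20. In Mup4, flushed male 3 (1698 CPM) stood apart from the other flushed libraries and male pool 1 (949.2 CPM) from the other pools. Female pool 1 (53.26 CPM) stood apart from the other females. In Mup5, flushed male 3 (536.2 CPM) and male pool 1 (99.6 CPM) stood apart within their preparations. These sets hold both sexes or both preparations, and on the log2 scale no set held such a value. Without female pool 1 the sex difference was 5.95 for Mup4 and 4.81 for Mup5, and without male pool 1 it was 5.05 and 5.16, none of them called by edgeR (adjusted p = 0.465, 0.577, 0.797 and 0.808).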

How the results depend on the processing

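With 2 libraries a group, 1 library can decide a result. By sex, 0 members were called in the fit as designed and in 16 of 18 alternatives. DESeq2 called 2, with 124 of 20601 genes called, and edgeR without a filter on low counts called 3, with 784 of 32514. By preparation, 0 were called in 15 of 18 alternatives and 2 without a filter, where 9938 of 32514 genes were called, against 9377 of 20601 with it. The number called by preparation also changed without flushed male 3, left out alone or with male pool 1 (the latter chosen after seeing the data). No other fit without 1 library changed it, and by sex none of these changed the 0. By interaction, 0 were called in 15 of 16 alternatives and 2 without a filter, where 263 of 32514 genes were called, against 10 of 20601 with it. The 784 genes that the unfiltered fit called by sex compare with 24 of 20601 with the filter. Its estimated prior degrees of freedom were infinite, against 5.256 with the filter.

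The Mup5 preparation difference of 0.30 turned to -2.62 with the 2 highest libraries left out (edgeR adjusted p = 0.00219), and leave-one-out fits ran from -3.21 to 0.99, the lowest without flushed male 3. The Mup4 preparation difference ran from -2.75 to 0.17. The Mup4 and Mup5 sex differences ran from 3.24 to 5.95 and from 2.44 to 5.58 in leave-one-out fits and kept their direction in every alternative. The interaction ran from -1.92 to 5.41 for Mup4 and from 0.64 to 7.18 for Mup5, lowest without flushed male 3. Centring values on their group means kept 2 of the 5 genes nearest Mup4 and 0 of those nearest Mup5, and a pseudocount of 5 kept 3 of the latter. No paired analysis was possible because the pools are numbered in accession order and flushed females and males share only 1 number. The cause was not tested for any of these changes.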
